A study of Mus musculus with 16 samples.

Results

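The 37 genes carried by mouse mitochondrial DNA were described here in bulk RNA-seq of the mouse aorta. The genes were taken as every entry whose chromosome is given as MT, which gave 37 of the 54532 genes in the tables, namely 13 protein-coding genes, 2 rRNA genes and 22 tRNA genes. The aortas came from male C57BL/6J mice, 12 weeks old at the first operation, in 4 groups of 4 mice with 1 library per mouse. Sham mice had the sham operation and a chow of 2% phosphorus and 2.5% protein, and 5/6 Nx-HPi-Lp mice had the same chow after removal of most of the kidney mass (5/6 nephrectomy). 5/6 Nx-HPi-Hp mice had the nephrectomy with 2% phosphorus and 18% protein, and 5/6 Nx-LPi-Lp mice had the nephrectomy with 0.3% phosphorus and 2.5% protein. The diets lasted 30 days per the labels, and no group combined the sham operation with another diet. Comparisons with Sham therefore isolated the operation only for 5/6 Nx-HPi-Lp, whereas the other nephrectomised groups differed from Sham in operation and in diet. HPi and LPi name high and low phosphorus, and Hp and Lp high and low protein.

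Mitochondrial DNA is a small circle that is transcribed on both strands into long precursor RNAs, from which the tRNAs are cut out so that the mRNAs and rRNAs between them are released. Its protein-coding genes make core subunits of complexes I, III and IV of the respiratory chain and of the ATP synthase (complex V), while the remaining subunits, the mitochondrial ribosomal proteins and the transcription machinery are made from nuclear genes. In the artery wall, smooth muscle is the main cell type of the media, and fat rich in mitochondria can surround the vessel.

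The order of the genes is shown by 4 stretches of the plus strand of mm10, read 5′ to 3′ from GENCODE transcripts, because neighbouring genes share bases or abut and so bear on what each count holds. Capitals mark the tRNA gene mt-Tl1 between mt-Rnr2 and mt-Nd1 (MT:2656-2770), the bases in the reading frames of both mt-Atp8 and mt-Atp6 (MT:7907-7989), the bases shared by mt-Nd5 and mt-Nd6, which lie on opposite strands (MT:13532-13585), and the tRNA gene mt-Tp, which lies on the opposite strand next to mt-Tt and the end of mt-Cytb (MT:15269-15422).
mt-Rnr2, mt-Tl1 and mt-Nd1: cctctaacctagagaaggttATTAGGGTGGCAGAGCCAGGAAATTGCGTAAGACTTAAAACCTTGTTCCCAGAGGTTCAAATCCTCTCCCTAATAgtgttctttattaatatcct
mt-Atp8 and mt-Atp6: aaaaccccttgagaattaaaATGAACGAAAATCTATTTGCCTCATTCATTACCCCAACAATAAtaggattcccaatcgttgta
mt-Nd5 and mt-Nd6: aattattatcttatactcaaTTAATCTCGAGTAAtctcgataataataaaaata
mt-Cytb, mt-Tt and mt-Tp: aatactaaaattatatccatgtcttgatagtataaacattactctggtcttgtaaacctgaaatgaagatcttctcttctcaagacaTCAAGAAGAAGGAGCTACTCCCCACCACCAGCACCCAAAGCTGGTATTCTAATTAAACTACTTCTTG
mt-Atp8 and mt-Atp6 shared 43 bases, and mt-Nd5 and mt-Nd6 shared 14. Whether the counting used strand is not given in the sources used here. The counts of overlapping genes are therefore uncertain by the reads in the shared bases. If strand was not used, the counts of a gene can also hold opposite-strand RNA over its whole length.

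Total counts per library ran from 13659525 to 57276915, and 30 to 35 of the 37 genes had a count in a given library. Mice 2 and 3 of 5/6 Nx-HPi-Lp were the deepest, at 57276915 and 46499243 counts, and no other library exceeded 24204348. Defining genes of smooth muscle were detected in every library, and markers of fat and other tissue differed between libraries, as given with the results below.

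The share of all counts taken by the mitochondrial genes was higher in every nephrectomised mouse than in any Sham mouse. In Sham the share was 4.53%, 4.18%, 5.73% and 6.34% in the 4 libraries. In 5/6 Nx-HPi-Lp it was 27.1%, 19.3%, 25.0% and 22.4%, in 5/6 Nx-HPi-Hp 16.3%, 29.0%, 25.0% and 9.50%, and in 5/6 Nx-LPi-Lp 16.8%, 21.1%, 14.2% and 17.6%. The lowest nephrectomised library was mouse 4 of 5/6 Nx-HPi-Hp, which still lay above the highest Sham library. The means were 5.19% ± 1.01 (SD, n = 4) in Sham, 23.5% ± 3.36 in 5/6 Nx-HPi-Lp, 20.0% ± 8.78 in 5/6 Nx-HPi-Hp and 17.4% ± 2.83 in 5/6 Nx-LPi-Lp, which makes 4.52, 3.84 and 3.35 times the Sham mean. Each of the 3 differences from Sham reached the smallest p that an exact permutation test of 4 against 4 allows (p = 0.0286, adjusted p = 0.0571, two-sided, 6 comparisons), and none passed the adjustment. The 3 comparisons share the Sham libraries. Among the nephrectomised groups, 5/6 Nx-HPi-Lp was 1.35 times 5/6 Nx-LPi-Lp (exact permutation test, p = 0.0571, adjusted p = 0.0857), and its difference from 5/6 Nx-HPi-Hp was smaller than the spread between the 5/6 Nx-HPi-Hp mice (ratio 1.18, exact permutation test, p = 0.486, adjusted p = 0.583). The exact permutation p between 5/6 Nx-HPi-Hp and the LPi-Lp nephrectomised group was 0.629 (adjusted p = 0.629). In bulk tissue, more cells rich in mitochondria and more mitochondrial RNA per cell cannot be told apart.

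**Figure D1:**
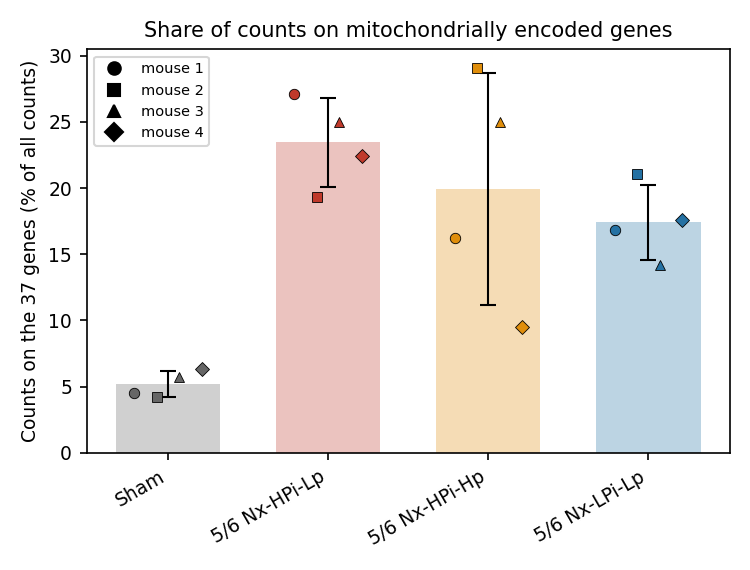
Share of all counts in the 37 mitochondrial genes (percent, y axis) in each of the 16 libraries, by group (x axis); marker shapes stand for mice 1 to 4 and bars give the mean ± SD. The Sham libraries sit between 4.18% and 6.34%, below all 12 nephrectomised libraries, and 5/6 Nx-HPi-Hp spreads most, from 9.50% to 29.0%.

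Levels of single genes, given per length as FPKM (fragments scaled by gene length and a library size), spanned more than any difference between groups. The library size implied by the deposited FPKM was 1.11 to 1.12 times the count total in Sham. In the nephrectomised libraries it was 0.863 to 1.06 times the total, which widens their distance from Sham in FPKM. Over the 16 libraries mt-Co1 (MT:5328-6872, plus strand), the catalytic subunit of complex IV, had the highest mean at 39808 FPKM. It was followed by mt-Cytb (MT:14145-15288, plus strand), the only mitochondrially encoded subunit of complex III, at 25945 FPKM and by the complex I subunit mt-Nd1 at 23373 FPKM. The complex I subunits mt-Nd2, mt-Nd4, mt-Nd6 and mt-Nd5 came next, with means of 14573, 10204, 9406 and 8527 FPKM in that order. The genes mt-Co2 and mt-Co3 (complex IV), mt-Atp6 and mt-Atp8 (complex V), and mt-Nd3 and mt-Nd4l (complex I) had means of only 14.2 to 1062 FPKM. Thus subunits of the same complex differed widely, with mt-Co1 at 39808 FPKM beside mt-Co3 at 555 FPKM. The rRNAs of the small and large mitochondrial ribosome subunits, mt-Rnr1 and mt-Rnr2, had means of 2023 and 2208 FPKM in these libraries, which were made from poly(A) RNA.

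The 6 low protein-coding genes were the ones that lie entirely within a stretch of mitochondrial DNA bounded by near-identical nuclear entries. Bases 6390 to 11042 of the mitochondrial genome (4653 bases, mm10) corresponded to 7 nuclear entries on chromosome 1 between bases 24611535 and 24616197. The nuclear entries Gm28661, Gm10925, Gm28437 and Gm10222 matched mt-Co2, mt-Atp6, mt-Co3 and mt-Nd4l at every aligned base, over 681, 678, 783 and 294 bases. Gm28439 matched mt-Nd4 at all 876 aligned bases, while mt-Nd3 and the end of mt-Co1 each differed from their nuclear match at 1 base (345 and 483 bases aligned). mt-Atp8 had no nuclear entry of its own and shared 43 bases with the matched part of mt-Atp6. Both of the single differences are shown, since they are the only bases in those alignments by which a read could be told apart; each line is read along the strand of its gene, and capitals mark the differing base.
mt-Nd3 (MT:9459-9501, plus strand): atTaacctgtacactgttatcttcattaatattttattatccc
Gm28438 (1:24613077-24613119, minus strand): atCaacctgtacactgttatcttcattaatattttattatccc
mt-Co1 (MT:6390-6433, plus strand): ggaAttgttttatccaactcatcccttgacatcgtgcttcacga
Gm29216 (1:24616145-24616188, minus strand): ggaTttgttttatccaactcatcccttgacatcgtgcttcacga
How reads that map to several places were counted is not given in the sources used here, so the levels of the 6 genes are uncertain, as are the part of mt-Nd4 and the part of mt-Co1 that lie in the stretch. The 7 nuclear entries were themselves detected, and took counts of the same order as some of the low genes. Gm28661 had a mean of 10951 counts beside 16801 for mt-Co2, and Gm28439 had 1862 beside 306249 for mt-Nd4. Gm29216 was at 64.3 ± 10.3 FPKM (SD, n = 4) in Sham and 434 ± 156 FPKM in 5/6 Nx-HPi-Lp, and all 7 were called higher than Sham in each nephrectomised group. Their log2 fold changes in 5/6 Nx-HPi-Lp ran from 1.71 (Gm28438) to 2.73 (Gm29216).

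**Figure D2:**
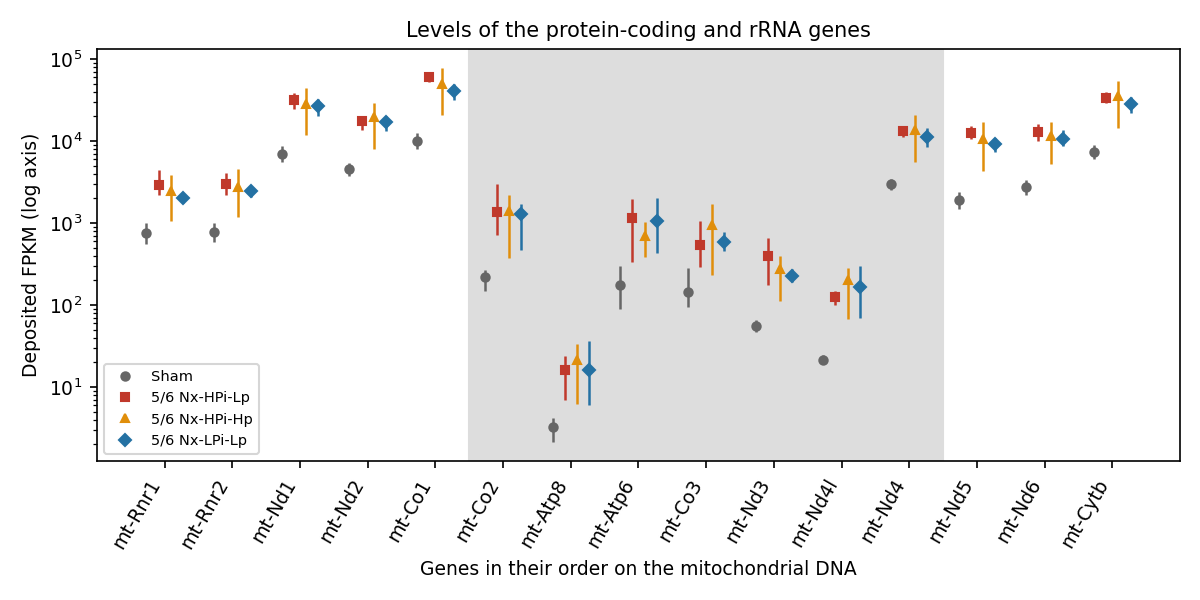
Level (FPKM, log axis) of the mitochondrial genes in each of the 4 groups; points are means of 4 mice, lines run from the lowest to the highest mouse, and grey marks genes within the stretch with near-identical nuclear sequence. mt-Co1 is highest and mt-Atp8 the lowest of the protein-coding genes, and the nephrectomised mice of every protein-coding gene lie above the Sham mice, except for mt-Co3 in 5/6 Nx-HPi-Hp.

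The comparison of 5/6 Nx-HPi-Lp with Sham asked what the nephrectomy did on the same chow. mt-Co1 stood at 8502, 7913, 11052 and 12429 FPKM in the Sham mice and at 68832, 51884, 62562 and 55264 FPKM in the mice of 5/6 Nx-HPi-Lp. All 4 nephrectomised values lay far above all 4 Sham values, and mt-Co1 rose by 2.55 ± 0.23 (adjusted p = 5.01e-05) on the log2 scale (edgeR, log2 fold change ± SE). mt-Cytb was at 6202, 5971, 8048 and 8984 FPKM in Sham and 39263, 28703, 37549 and 29009 FPKM in 5/6 Nx-HPi-Lp, again with no overlap, a log2 fold change of 2.18 ± 0.22 (adjusted p = 7.32e-05). The complex I subunit mt-Nd5 (MT:11742-13565, plus strand) was at 1459.7, 1546, 2369 and 2332 FPKM in Sham and 15085, 10575, 12239 and 12465 FPKM in 5/6 Nx-HPi-Lp. The lowest nephrectomised mouse was well above the highest Sham mouse, with a log2 fold change of 2.68 ± 0.23 (adjusted p = 4.07e-05). mt-Nd6 (MT:13552-14070, minus strand), the one protein-coding gene read from the other strand, was at 2211, 2292, 3014 and 3299.6 FPKM in Sham and 16034, 10063, 12204 and 12532 FPKM in 5/6 Nx-HPi-Lp, with a log2 fold change of 2.21 ± 0.20 (adjusted p = 5.29e-05). Like the genes of the opposite strand it was called higher, and its groups did not overlap either. Whether its reads came from its own strand is not known, since the use of strand in counting is not given.

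All 13 protein-coding genes were upregulated in 5/6 Nx-HPi-Lp relative to Sham, with log2 fold changes from 1.86 (mt-Co3) to 2.81 (mt-Nd3) and a median of 2.29, beside a median of 0.00 over all genes tested. A gene was called when its adjusted p was at most 0.05 and its change at least 1 on the log2 scale, and 15.0% of all 16513 genes tested were called higher. Of the 37 mitochondrial genes, 28 had enough counts to be tested and 27 of them were called higher, as were 13 of 13 protein-coding genes, 2 of 2 rRNA genes and 12 of 13 tested tRNA genes. By complex, the 7 subunits of complex I rose by 1.91 ± 0.20 (mt-Nd2) to 2.81 ± 0.35 (mt-Nd3), the 3 of complex IV by 1.86 ± 0.48 (mt-Co3) to 2.57 ± 0.47 (mt-Co2, 1.83 without mouse 3 of 5/6 Nx-HPi-Lp), and mt-Atp6 and mt-Atp8 of complex V by 2.66 ± 0.61 and 2.29 ± 0.46. For all 13 genes the 4 nephrectomised FPKM values lay above the 4 Sham values, a pattern without overlap that 41.8% of all genes tested showed in one direction or the other.

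Both rRNA genes rose, with log2 fold changes below the median of the 13 mRNA genes. mt-Rnr2 was at 777, 583, 691 and 1007 FPKM in Sham and 3053, 2189, 4111 and 2457 FPKM in 5/6 Nx-HPi-Lp, a log2 fold change of 1.92 ± 0.24 (adjusted p = 0.000245) in edgeR. The groups did not overlap, and mouse 3 of 5/6 Nx-HPi-Lp had the highest value. The log2 fold change of mt-Rnr1 was 1.91 ± 0.27 (adjusted p = 0.000477). Relative to Sham, mt-Rnr1 and mt-Rnr2 changed by 1.65 ± 0.40 and 1.80 ± 0.40 in 5/6 Nx-HPi-Hp and by 1.41 ± 0.20 and 1.68 ± 0.20 in 5/6 Nx-LPi-Lp, all 4 called. The medians of the 13 mRNA genes in the same comparisons were 2.28 and 2.03. This difference between rRNA and mRNA was tested only as a share of the mitochondrial counts, given below.

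Counts in most tRNA genes were low. mt-Tf and mt-Td had no count in any library, mt-Tv, mt-Ts1 and mt-Tk were too low for any comparison, and mt-Ti, mt-Tq, mt-Tm and mt-Tt entered only some. The highest was mt-Tp, the proline tRNA, with a mean of 3117 FPKM. The 8 tRNA genes on the strand of mt-Tp and mt-Nd6 had a median of 277 FPKM, and the 14 on the strand of mt-Co1 had a median of 20.4 FPKM. Strand here is that of the annotated gene, and the strand of the reads is not known. mt-Tp was at 713, 550.2, 712 and 678 FPKM in Sham, 5911, 3749, 5610.05 and 7673 FPKM in 5/6 Nx-HPi-Lp, 2536, 4039.8, 4968 and 1335 FPKM in 5/6 Nx-HPi-Hp and 3996, 2783, 2345 and 2272 FPKM in 5/6 Nx-LPi-Lp. Every nephrectomised mouse was above every Sham mouse, and mouse 4 of 5/6 Nx-HPi-Hp was the lowest of them. mt-Tp rose by 3.08 ± 0.22 (adjusted p = 1.71e-05) in 5/6 Nx-HPi-Lp relative to Sham (edgeR). The leucine tRNA mt-Tl2 and the histidine tRNA mt-Th, which lie side by side with mt-Ts2 between mt-Nd4 and mt-Nd5, rose by 3.75 ± 0.47 and 3.56 ± 0.43, and the glutamate tRNA mt-Te, next to mt-Nd6, by 1.34 ± 0.25. The alanine tRNA mt-Ta was the one tested gene not called in 5/6 Nx-HPi-Lp, at 1.53 ± 0.73 (adjusted p = 0.117) in edgeR, with only 3 to 98 counts per library. It is named because of this result.

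The remaining nephrectomised groups were also compared with Sham. In 5/6 Nx-HPi-Hp mt-Co1 was at 36801, 77456, 62562 and 20649.6 FPKM and rose by 2.29 ± 0.45 (adjusted p = 0.0099) (edgeR). Mouse 2 was the highest and mouse 4 the lowest, and all 4 exceeded the Sham mice. In 5/6 Nx-LPi-Lp mt-Co1 was at 41133, 49173, 31597 and 39122 FPKM and rose by 2.03 ± 0.25 (adjusted p = 0.00269) (edgeR), with values closer to each other than in 5/6 Nx-HPi-Hp. All 28 mitochondrial genes tested were called higher in 5/6 Nx-HPi-Hp, where 9.41% of all genes were, and all 29 tested were called higher in 5/6 Nx-LPi-Lp, where 8.79% were. The groups did not overlap for 12 of the 13 protein-coding genes in 5/6 Nx-HPi-Hp (background 33.4%), mt-Co3 being the exception, and for 13 of 13 in 5/6 Nx-LPi-Lp (background 34.0%). mt-Nd4l, a small complex I subunit whose last 7 bases overlap mt-Nd4, had the highest protein-coding log2 fold change in both, 3.21 ± 0.38 in 5/6 Nx-HPi-Hp and 2.97 ± 0.40 in 5/6 Nx-LPi-Lp, beside 2.51 ± 0.16 in 5/6 Nx-HPi-Lp. mt-Nd3 changed by 2.81 ± 0.35, 2.28 ± 0.34 and 2.03 ± 0.16 in the HPi-Lp, HPi-Hp and LPi-Lp groups of nephrectomised mice, and both genes lie in the stretch with nuclear copies. The standard errors of the protein-coding genes were larger in 5/6 Nx-HPi-Hp, 0.34 to 0.58, where mouse 4 had a lower share than the other 3.

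**Figure D3:**
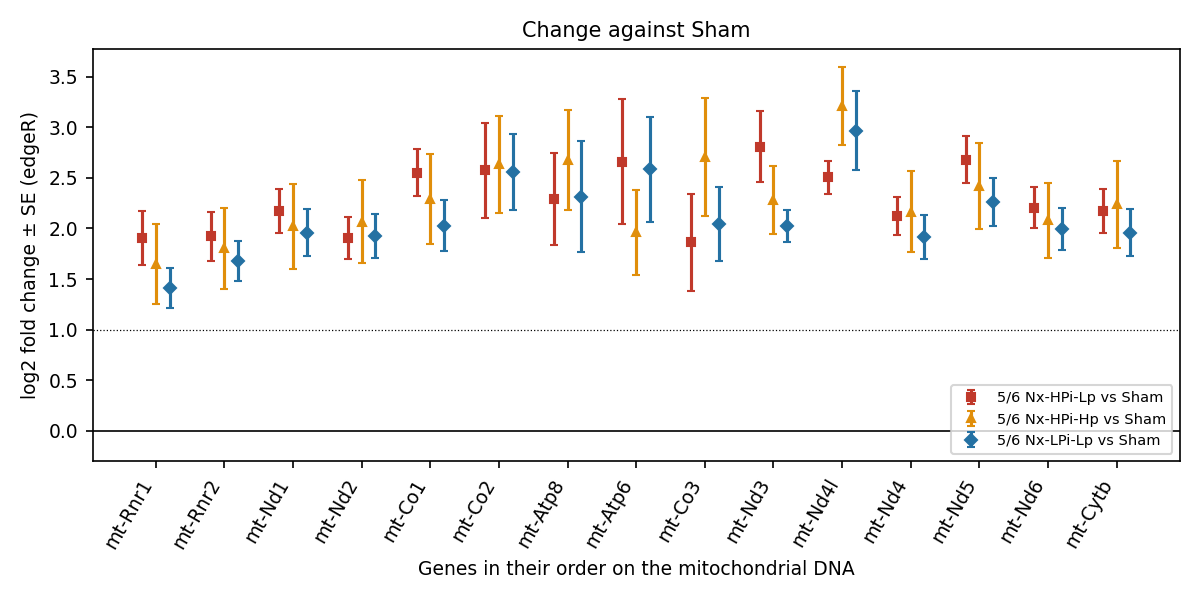
Log2 fold change relative to Sham (edgeR, points ± SE) of the 13 protein-coding and 2 rRNA genes in the HPi-Lp, HPi-Hp and LPi-Lp groups of nephrectomised mice, with a dotted line at the threshold of 1. All points lie above the line, and the medians of the 13 protein-coding genes are 2.29, 2.28 and 2.03.

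The 3 nephrectomised groups were compared with each other to ask what dietary protein and phosphorus did. Between 5/6 Nx-HPi-Lp and 5/6 Nx-HPi-Hp, which differed in protein, 0 of 32 tested mitochondrial genes were called, while 8.12% of all genes were (edgeR). The median log2 fold change of the 13 protein-coding genes was -0.03, with single genes from -0.81 ± 0.57 (mt-Co3) to 0.72 ± 0.58 (mt-Atp6). With standard errors near the size of these differences, they were not detectable at this replicate number. Between 5/6 Nx-HPi-Lp and 5/6 Nx-LPi-Lp, which differed in phosphorus, 1 of 31 mitochondrial genes was called, beside 11.9% of all genes. That gene was mt-Tp, 1.01 ± 0.25 (adjusted p = 0.0217) higher in 5/6 Nx-HPi-Lp on the log2 scale (edgeR), although the FPKM values of both groups overlapped. Its call was lost without mouse 4 of 5/6 Nx-HPi-Lp or without mouse 2, 3 or 4 of 5/6 Nx-LPi-Lp, at log2 fold changes of 0.85 to 0.98 and adjusted p of 0.0523 to 0.0676 (edgeR). mt-Co1 was the one protein-coding gene whose groups did not overlap, as was so for 24.6% of all genes, with 51884 to 68832 FPKM in 5/6 Nx-HPi-Lp and 31597 to 49173 FPKM in 5/6 Nx-LPi-Lp, but its difference of 0.57 ± 0.30 (adjusted p = 0.206) was not called. The other 12 protein-coding genes lay between -0.42 ± 0.38 (mt-Nd4l) and 0.82 ± 0.33 (mt-Nd3), and the median of all 13 was 0.25. Between 5/6 Nx-HPi-Hp mice and those of 5/6 Nx-LPi-Lp, which differed in both, 0 of 31 mitochondrial genes and 0 of 15850 genes in all were called by edgeR. There, 1420 genes and 1 mitochondrial gene had an unadjusted edgeR p under 0.05, DESeq2 called 75 genes, and limma called 0.

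The part that each gene took of the mitochondrial counts was compared as well, since it does not depend on the scaling between libraries. mt-Co1 took 32.6, 32.5, 33.3 and 33.7% of the mitochondrial counts in the Sham mice and 38.7, 40.4, 37.6 and 39.2% in the mice of 5/6 Nx-HPi-Lp. It took 34.4% to 36.0% in 5/6 Nx-HPi-Hp and 33.6% to 34.2% in 5/6 Nx-LPi-Lp, and all 4 mice of 5/6 Nx-HPi-Lp lay above all 12 other mice. The difference between 5/6 Nx-HPi-Lp and Sham was 5.95 percentage points (exact permutation test, p = 0.0286, adjusted p = 0.0969), from means of 39.0% ± 1.19 and 33.0% ± 0.565. The share of mt-Nd2, a complex I subunit, was in contrast lowest in 5/6 Nx-HPi-Lp, at 7.13% to 8.10%, beside 9.85% to 10.3% in Sham, 9.03% to 9.63% in 5/6 Nx-HPi-Hp and 9.38% to 10.1% in 5/6 Nx-LPi-Lp. No 5/6 Nx-HPi-Lp mouse reached a mouse of another group. mt-Cytb took 15.2% to 16.7% in 5/6 Nx-HPi-Lp, below the 17.6% to 18.2% of Sham, the 18.1% to 18.7% of 5/6 Nx-HPi-Hp and the 17.2% to 17.6% of 5/6 Nx-LPi-Lp.

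Further genes took a part of the mitochondrial counts that did not overlap with Sham. mt-Nd5 took 7.50% ± 0.745 in Sham, 9.71% ± 0.750 in 5/6 Nx-HPi-Lp, 8.77% ± 0.355 in 5/6 Nx-HPi-Hp and 9.15% ± 0.269 in 5/6 Nx-LPi-Lp (SD, n = 4), and mt-Nd1 took 14.2% ± 0.183, 12.7% ± 0.697, 12.5% ± 0.276 and 13.8% ± 0.445 in the same order. mt-Nd1 was lower than every Sham mouse in 5/6 Nx-HPi-Lp and 5/6 Nx-HPi-Hp, whereas mt-Nd5 was higher than every Sham mouse in 5/6 Nx-HPi-Lp and 5/6 Nx-LPi-Lp. Of the 13 protein-coding genes, 6 did not overlap between 5/6 Nx-HPi-Lp and Sham, 5 between 5/6 Nx-HPi-Lp and 5/6 Nx-HPi-Hp, and 4 between 5/6 Nx-HPi-Lp and 5/6 Nx-LPi-Lp. The numbers were 4, 1 and 3 for 5/6 Nx-HPi-Hp against Sham, 5/6 Nx-LPi-Lp against Sham and 5/6 Nx-HPi-Hp against 5/6 Nx-LPi-Lp. They have no background over all genes, since the shares are of the mitochondrial counts alone. Of the 78 tests, 23 reached the smallest exact permutation p of 0.0286 and none passed the adjustment (adjusted p = 0.0969). These shares add up to a fixed total, so they are not independent. A higher share of mt-Co1 lowers the sum of the others, but not each of them, as the mean share of mt-Nd5 was also higher in 5/6 Nx-HPi-Lp. The rRNA genes took 4.18% ± 0.694 of the mitochondrial counts in Sham, 3.12% ± 0.707 in 5/6 Nx-HPi-Lp, 3.01% ± 0.295 in 5/6 Nx-HPi-Hp and 3.19% ± 0.578 in 5/6 Nx-LPi-Lp. Only 5/6 Nx-HPi-Hp did not overlap Sham (exact permutation test, p = 0.0286, adjusted p = 0.274, 12 tests with those of the other strand). mt-Nd6 and the 8 tRNA genes of its strand together took 3.18% ± 0.129 in Sham and 3.00% ± 0.311, 2.99% ± 0.145 and 3.19% ± 0.108 in the HPi-Lp, HPi-Hp and LPi-Lp groups of nephrectomised mice. Strand is that of the annotated gene, so these shares need not measure RNA of that strand.

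**Figure D4:**
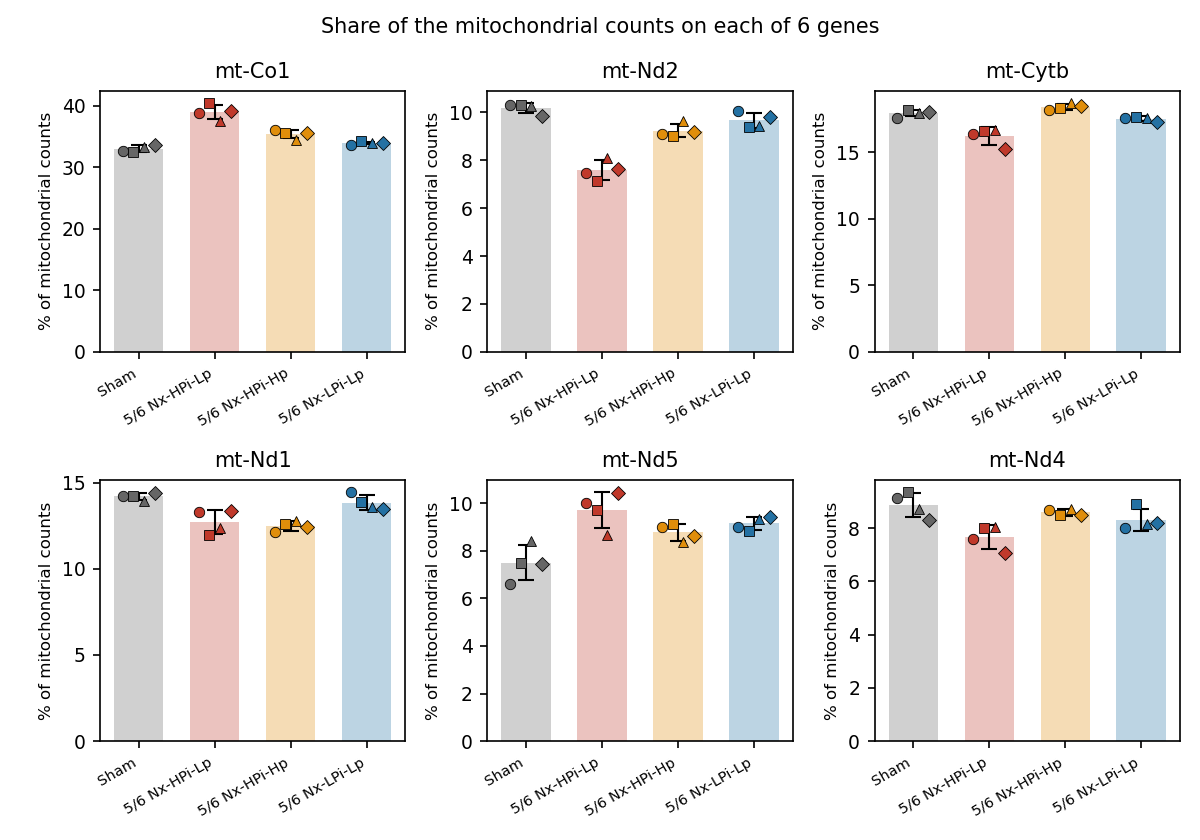
Percent of the mitochondrial counts (y axis) taken by mt-Co1, mt-Nd2, mt-Cytb, mt-Nd1, mt-Nd5 and mt-Nd4 in each group; bars are means ± SD and points are the 4 mice. mt-Co1 is highest and mt-Nd2 lowest in 5/6 Nx-HPi-Lp, with means of 39.0% and 7.59%.

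Of the nuclear genes that supply the rest of the same complexes, few were called in 5/6 Nx-HPi-Lp and more in 5/6 Nx-LPi-Lp. In 5/6 Nx-HPi-Lp, 1 of 80 nuclear-encoded respiratory subunits was called higher than Sham and the median log2 fold change was 0.27, beside 2.29 for the 13 mitochondrial genes. The one was Cox8b, a complex IV subunit of muscle and brown fat, at 1.16 ± 0.31 (adjusted p = 0.0125) in edgeR. In 5/6 Nx-HPi-Hp 18 of the 80 were called higher (median 0.78), and in 5/6 Nx-LPi-Lp 49 were (median 1.09). Over all genes tested, 15.0%, 9.41% and 8.79% were called higher in the same comparisons, so the share of the 80 lay below the background in 5/6 Nx-HPi-Lp and above it in the other nephrectomised groups. None of the 80 was called lower in these 3 comparisons, while by adjusted p alone 34 were higher and 4 lower in 5/6 Nx-HPi-Lp, beside 42.9% of all genes in either direction. Sdha, the catalytic subunit of complex II, which has no mitochondrially encoded subunit, had log2 fold changes relative to Sham of 0.67 ± 0.19, 0.98 ± 0.35 and 1.82 ± 0.32 in the HPi-Lp, HPi-Hp and LPi-Lp groups of nephrectomised mice, the last of which was called. The other complex II subunits Sdhb, Sdhc and Sdhd were at 0.50 ± 0.14, -0.14 ± 0.16 and 0.83 ± 0.17 in 5/6 Nx-HPi-Lp, none of them called, and at 1.54 ± 0.22, 0.76 ± 0.16 and 1.66 ± 0.26 in 5/6 Nx-LPi-Lp, where Sdhb and Sdhd were called. In complexes I, III, IV and V of 5/6 Nx-LPi-Lp the medians of the nuclear subunits were 1.05, 1.57, 1.22 and 1.02. In 5/6 Nx-HPi-Lp they were 0.24, 0.42, 0.34 and 0.13. Compared directly, 12 of the 80 were called lower in 5/6 Nx-HPi-Lp than in 5/6 Nx-LPi-Lp (median -0.79, with 3.98% of all genes called lower), and 0 were called between 5/6 Nx-HPi-Lp and 5/6 Nx-HPi-Hp (median -0.42).

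As a ratio within each library, the 13 mitochondrial genes had 4.51, 3.81, 4.83 and 5.55 counts per count of the 80 nuclear subunits in Sham and 26.7, 16.4, 17.1 and 16.5 in 5/6 Nx-HPi-Lp. The ratio was 7.70, 24.4, 11.4 and 9.36 in 5/6 Nx-HPi-Hp and 5.82, 9.41, 7.08 and 12.2 in 5/6 Nx-LPi-Lp. All 4 mice of 5/6 Nx-HPi-Lp were above all Sham and all 5/6 Nx-LPi-Lp mice, and mouse 2 of 5/6 Nx-HPi-Hp was also high. The means were 4.68 ± 0.723, 19.2 ± 5.01, 13.2 ± 7.60 and 8.64 ± 2.81 (SD, n = 4). This ratio was chosen after the data were seen and was not tested.

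**Figure D5:**
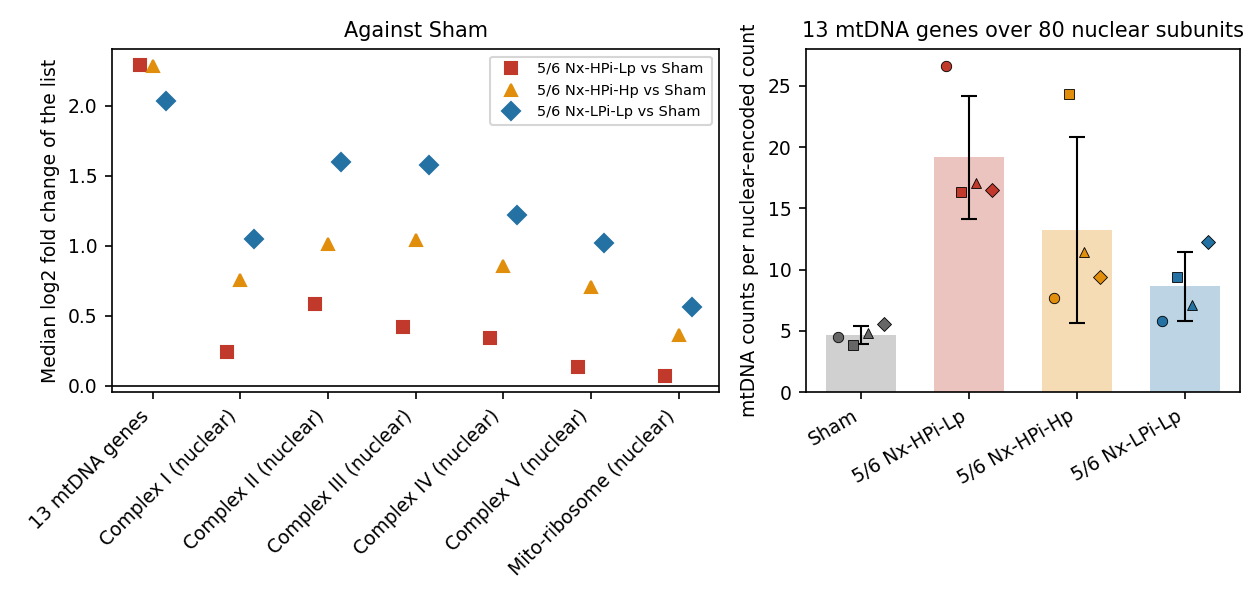
Left, median log2 fold change relative to Sham (edgeR) of the 13 mitochondrial protein-coding genes, of the nuclear-encoded subunits of complexes I to V and of the mitochondrial ribosomal proteins in the 3 nephrectomised groups; right, counts of the 13 mitochondrial genes per count of the 80 nuclear subunits in each library. In 5/6 Nx-HPi-Lp the mitochondrial median is 2.29 and the nuclear medians are at most 0.58, whereas in 5/6 Nx-LPi-Lp the nuclear medians of the complexes reach 1.60.

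The genes that transcribe, process and translate mitochondrial RNA showed few calls against Sham. Of 22 genes of mitochondrial DNA transcription and maintenance, 0 were called in 5/6 Nx-HPi-Lp. By edgeR's adjusted p alone 2 were higher and 2 lower there, beside 42.9% of all genes in either direction. The 1 lower in 5/6 Nx-HPi-Hp was Rrm2b, a ribonucleotide reductase subunit that supplies nucleotides for mitochondrial DNA (-1.21 ± 0.19), and the 1 higher in 5/6 Nx-LPi-Lp was Tefm, the mitochondrial transcription elongation factor (1.04 ± 0.22). The medians of the 22 genes were -0.12, 0.18 and 0.25 in the HPi-Lp, HPi-Hp and LPi-Lp groups of nephrectomised mice. Of 30 genes of mitochondrial RNA processing, stability and modification, 0, 1 and 4 were called higher in the same order, beside 15.0%, 9.41% and 8.79% of all genes. These counts were below the background or near it, and the called genes are given for completeness. Supv3l1, the helicase of mitochondrial RNA decay, was the 1 in 5/6 Nx-HPi-Hp (1.12 ± 0.19). It was called in 5/6 Nx-LPi-Lp as well (1.07 ± 0.17), with Lrpprc, which stabilises mitochondrial mRNA (1.06 ± 0.20), Tbrg4 (1.01 ± 0.15) and the rRNA methyltransferase Nsun4 (1.22 ± 0.17). Of 77 mitochondrial ribosomal protein genes tested, 0, 0 and 3 were called higher, below the background in each comparison, the 3 being Mrps2, Mrps36 and Mrpl12 at 1.06 ± 0.24, 1.13 ± 0.23 and 1.17 ± 0.18. The medians of the ribosomal protein genes were 0.07, 0.36 and 0.56.

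Among 16 genes of mitochondrial biogenesis and mass, 1, 3 and 6 were called higher in the HPi-Lp, HPi-Hp and LPi-Lp groups of nephrectomised mice, where 15.0%, 9.41% and 8.79% of all genes were. In 5/6 Nx-HPi-Lp it was Ppargc1b, a coactivator of genes for mitochondrial proteins, at 1.10 ± 0.29 (adjusted p = 0.0129) in edgeR. The 3 in 5/6 Nx-HPi-Hp were Ppargc1b (2.06 ± 0.44), its relative Ppargc1a, and their partner Esrra (1.01 ± 0.25). The same genes were called in 5/6 Nx-LPi-Lp with Cs, the citrate synthase often used as a measure of mitochondrial mass (1.67 ± 0.28), Timm23 and Hspa9. Among 8 mitophagy genes, Bnip3, a receptor for the removal of mitochondria, rose by 1.66 ± 0.30 (adjusted p = 0.0018) in 5/6 Nx-HPi-Lp (edgeR) and was the 1 called there. By adjusted p alone 3 of the 8 were lower there, beside 42.9% of all genes in either direction, and the median of the 8 was 0.00. In 5/6 Nx-LPi-Lp Bnip3 was called higher as well (1.26 ± 0.27). The 8 genes summed to 1069.8 to 1248 CPM in Sham. CPM are counts scaled by a library size adjusted with TMM scaling, not by the count total. In the HPi-Lp, HPi-Hp and LPi-Lp groups the sums were 751 to 986, 698 to 934 and 929.7 to 1066 CPM. Every nephrectomised sum was therefore below every Sham sum, with 1066 and 1069.8 CPM as the closest values. These sums were not tested. A sum rests most on the genes with the most counts, so it does not show a fall of the list as a set. Besides Ppargc1b, Cox8b, Bnip3 and the complex II subunits, the nuclear genes of these lists were singled out after their values were seen.

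Markers of other cell types differed between the groups in which the mitochondrial genes differed. The 8 white adipocyte markers summed to 672 to 1652 CPM in Sham, 5953 to 12157 in 5/6 Nx-HPi-Lp, 1594 to 12470.3 in 5/6 Nx-HPi-Hp and 3169 to 8736 in 5/6 Nx-LPi-Lp, and 7, 8 and 8 of 8 were called higher than Sham, beside 15.0%, 9.41% and 8.79% of all genes. The adipokine genes Cfd and Retn rose most in 5/6 Nx-HPi-Lp, by 4.43 ± 0.51 and 4.28 ± 0.51. The 7 brown adipocyte markers, which include the complex IV subunit Cox8b, summed to 373 to 745, 650.1 to 2156, 817 to 2866 and 1517 to 5062 CPM, and 3, 4 and 5 of the 6 tested were called higher, with 1 lower in 5/6 Nx-HPi-Hp. Besides Cox8b, Dio2, which activates thyroid hormone, rose in 5/6 Nx-HPi-Lp by 2.51 ± 0.46. The 8 smooth muscle markers summed to 26848 to 31177 CPM in Sham and 2729.6 to 6006, 8541 to 29374 and 10183 to 22389 CPM in the nephrectomised groups, and 8, 1 and 2 of 8 were called lower, beside 7.18%, 2.75% and 2.08% of all genes. Myh11, the smooth muscle myosin heavy chain, and Lmod1 had log2 fold changes of -2.98 ± 0.30 and -2.92 ± 0.27 in 5/6 Nx-HPi-Lp. Mouse 4 of 5/6 Nx-HPi-Hp, with the lowest mitochondrial share of the nephrectomised mice, had the highest smooth muscle sum of its group and the lowest white adipocyte sum. Other mice did not follow this order. Mouse 2 of that group, with the highest share (29.0%), had more smooth muscle (14389 CPM) and less white adipocyte signal (4068 CPM) than mice 1 and 3. Mouse 1 of 5/6 Nx-LPi-Lp had the highest white and brown adipocyte sums of its group (8736 and 5062 CPM) at a share of 16.8%. Without mouse 4 of 5/6 Nx-HPi-Hp, 30 mitochondrial genes were called higher than Sham in that group, and the median of the 13 protein-coding genes was 2.55.

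Heart muscle markers summed to 77.2 to 134 CPM in Sham, 53.3 to 194 in 5/6 Nx-HPi-Lp, 97.3 to 1122 in 5/6 Nx-HPi-Hp and 72.0 to 8219 in 5/6 Nx-LPi-Lp, where mouse 2 had the highest value. Of 7 tested heart muscle markers, 1 was called higher and 1 lower in 5/6 Nx-HPi-Lp, 5 higher in 5/6 Nx-HPi-Hp and 3 higher in 5/6 Nx-LPi-Lp. Of all genes, 15.0%, 9.41% and 8.79% were called higher in the same order, and 7.18% lower in 5/6 Nx-HPi-Lp. The 2 heart muscle markers called in 5/6 Nx-HPi-Lp were the cardiac troponin I gene Tnni3 (1.99 ± 0.28) and the calcium release channel gene Ryr2 (-1.08 ± 0.34). Mouse 2 of 5/6 Nx-LPi-Lp also had the highest mitochondrial share of its group, 21.1%. Without it, 29 mitochondrial genes were called higher than Sham in 5/6 Nx-LPi-Lp, and the median of the 13 protein-coding genes was 1.91. Macrophage markers summed to 239 to 360.2 CPM in Sham and 821 to 2659, 335 to 662 and 244 to 394 CPM in the nephrectomised groups. None of the markers of smooth muscle, white or brown adipocytes, heart muscle or macrophages was at 0 throughout a group. The part of these cell types in the mitochondrial levels was not tested. Of the 8 RNAs without a poly(A) tail or retained in the nucleus, listed here as a sign of how RNA was selected, 4 (Rmrp, Rpph1, Rny1 and Rny3) were listed at 0 in all libraries, and the sum was 1441 to 2005 CPM in Sham and 1720.01 to 2817, 2223 to 3283 and 2479.6 to 2581 CPM in the nephrectomised groups. None of the 4 tested was called in 5/6 Nx-HPi-Lp, and Rn7sk and Kcnq1ot1 were called higher in 5/6 Nx-HPi-Hp (1.38 ± 0.17 and 1.04 ± 0.19) and in 5/6 Nx-LPi-Lp (1.06 ± 0.16 and 1.05 ± 0.17). The part of RNA quality in the mitochondrial levels was not tested.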

How the data were processed

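Aortic RNA of 16 mice (4 per group, groups as labelled) was selected on poly-T beads and sequenced. The authors used HISAT2 (genome mm10) for alignment and featureCounts 1.5.0-p3 for the counts of each gene. They deposited raw counts and FPKM (fragments scaled by gene length and by a library size that differed from the count total). Library strand and the treatment of multi-mapping reads are not given in the sources used here. Nothing in the labels names a batch.

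The deposited counts were tested with edgeR 4.0.16 (R 4.3.3): filterByExpr, TMM scaling, quasi-likelihood test over all genes in 8 libraries per comparison, Benjamini-Hochberg adjustment. A gene was called at adjusted p of at most 0.05 and absolute log2 fold change of at least 1. Shares of counts were compared by exact permutation over mice (70 regroupings, two-sided, scipy 1.17.1). The deposited FPKM gave the levels. In simulated counts for 5/6 Nx-HPi-Lp vs Sham (16925 genes), edgeR recovered 96.5% of 200 genes changed 4-fold, with 15 false calls. The simulation gave every gene the same dispersion and changed equal numbers up and down, so these rates need not hold in the data. DESeq2 1.42.0 and limma 3.58.1, on log2(FPKM + 1) and log2(FPKM + 0.1) after a mean FPKM filter of 0.5, were alternatives. The other alternatives were scaling by size factors, by total counts or on nuclear genes, no filter or 10 counts in each library, one fit of all 16 libraries, a replicate block and each mouse left out. Nuclear copies were found with BLAST 2.17.0 at 99% identity or more over at least 50 bases and 50% of the nuclear gene.

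All protein-coding and rRNA genes were named, with tRNA genes of at least 50 mean counts and, from each list of nuclear genes, the 2 called genes with the largest change in 5/6 Nx-HPi-Lp vs Sham. Lists of at most 6 genes without a call were named whole, as were the nuclear copies. tRNA genes below that level are named for being absent or untested. A called gene of one of these lists is not reported here. The members, lists and tests were chosen with earlier results of these data known. The mice are separate animals, so the p-values measure the spread between mice.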

Additional observations from a re-analysis of the deposited data

Results flagged for a closer look

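Of 128 sets of 4 mice checked for a mouse far from the other 3, 8 held one, where chance gives about 1 in 20. In 5/6 Nx-HPi-Lp, 5 of the 8 were mouse 3, a deep library of 46499243 counts. The sets are not independent, since mt-Co2 enters as FPKM and as a share and mt-Rnr2 is part of the rRNA. Mouse 3 had 2978 FPKM of mt-Co2 where the other 3 mice had 706 to 868, and mt-Co2 took 0.791% of its mitochondrial counts beside 0.216% to 0.257%. mt-Co3 took 0.319% of its mitochondrial counts beside 0.114% to 0.130%. The rRNA genes took 4.17% beside 2.72% to 2.84%, of which mt-Rnr2 took 2.53% beside 1.75% to 1.78%. mt-Co2 and mt-Co3 lie in the stretch with near-identical nuclear sequence, and the rRNA genes lie outside it. In Sham, mouse 1 had 279 FPKM of mt-Co3 beside 94.1 to 108 in the other 3, which is the mouse that overlapped 5/6 Nx-HPi-Hp. In Sham mouse 4, mt-Nd2 took 9.85% of the mitochondrial counts beside 10.3% in each of the other 3. In mouse 1 of 5/6 Nx-HPi-Hp, mt-Rnr1 took 0.919% beside 1.09% to 1.12%.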

How the results depend on the processing

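The medians of the 13 protein-coding genes relative to Sham stayed at 2.16 to 2.33 (5/6 Nx-HPi-Lp), 2.03 to 2.30 (5/6 Nx-HPi-Hp) and 1.78 to 2.04 (5/6 Nx-LPi-Lp) over 10 alternatives of scaling, filter, tool and fit, with 25 to 31, 25 to 32 and 25 to 34 mitochondrial genes called over 11. Between 5/6 Nx-HPi-Lp and 5/6 Nx-HPi-Hp the median moved between -0.04 and 0.13, so its sign depends on the setting, and 1 gene was called when all 16 libraries were fitted together. Between 5/6 Nx-HPi-Lp and 5/6 Nx-LPi-Lp, 0 genes were called with the replicate block and 0 to 3 when 1 mouse was left out (3 without mouse 2 of 5/6 Nx-HPi-Lp, mt-Nd3 among them at 1.06, edgeR adjusted p = 0.0201). mt-Rnr1 in 5/6 Nx-HPi-Hp vs Sham lost its call with the replicate block (1.51, adjusted p = 0.0522) and without Sham mouse 2 (1.52, adjusted p = 0.0541). The difference in share between 5/6 Nx-HPi-Hp mice and those of 5/6 Nx-LPi-Lp reversed, to -0.498 percentage points, without mouse 2 of 5/6 Nx-HPi-Hp, and was up to 6.01 without mouse 4 of that group. With 3 mice against 4 the smallest exact permutation p is 0.0571. The cause of these changes was not tested. The replicate numbers did not pair the mice: deviations of same-numbered mice correlated at -0.299 to 0.566, and 5 of 24 correlated best with their own number. With the replicate block 27, 26 and 28 mitochondrial genes were called against Sham in the HPi-Lp, HPi-Hp and LPi-Lp groups of nephrectomised mice, and the paired shares could not pass the threshold, since sign flips of 4 pairs allow 16 regroupings. The ratio of mitochondrial to nuclear subunit counts and its alternatives were chosen after seeing the data. Depth limits the tRNA genes, many with under 50 counts, and the number of mice limits the diet comparisons.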

Other observations

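Other cell types differed between the groups as well. All 8 macrophage markers were called higher than Sham in 5/6 Nx-HPi-Lp, among them Lyz2 (lysozyme) at 2.73 ± 0.37 and Lgals3 (galectin-3) at 2.66 ± 0.20 on the log2 scale, whereas 2 were in 5/6 Nx-HPi-Hp and 0 in 5/6 Nx-LPi-Lp. Of all genes tested, 15.0%, 9.41% and 8.79% were called higher than Sham in the HPi-Lp, HPi-Hp and LPi-Lp groups. Fibroblast markers summed to 2115 to 3195 CPM in Sham and 3104 to 12606 CPM in 5/6 Nx-HPi-Lp, where 3 of 8 were called higher, including the collagen gene Col1a1 at 2.37 ± 0.48 and Lum at 2.39 ± 0.36. Col1a1 weighed heavily in this sum, with 24251 to 522479 counts per library in 5/6 Nx-HPi-Lp beside 13638 to 27561 in Sham. The fibroblast sum does not show a rise of these markers as a set. Endothelial markers summed to 803 to 1158 CPM in Sham and 908 to 1143, 740.03 to 1074 and 784 to 1034 CPM in the HPi-Lp, HPi-Hp and LPi-Lp groups of nephrectomised mice. The 5/6 Nx-HPi-Lp sums lay within the Sham range. Emcn and Kdr, the called markers of this list with the largest change, were higher in 5/6 Nx-HPi-Lp at 2.00 ± 0.22 and 1.98 ± 0.28. They do not stand for the list, whose sum stayed within the Sham range. Erythroid markers summed to 379 to 3993 CPM in Sham and 188 to 379, 176 to 1329.8 and 80.8 to 199 CPM in the same order, and skeletal muscle markers to 9.61 to 76.1, 5.32 to 14.1, 9.62 to 28.9 and 8.16 to 381 CPM. The erythroid genes Alas2 and Hbb-bt were called lower in 5/6 Nx-HPi-Lp than in Sham (-2.49 ± 0.69 and -2.46 ± 0.65), and so were the skeletal muscle genes Ckm and Acta1 (-5.35 ± 0.93 and -4.49 ± 1.10). Counts of Hbb-bt are uncertain, since reads can also fall on a near-identical paralog.

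Sympathetic neuron markers summed to 1220.1, 59.1, 265 and 950.2 CPM in the mice of 5/6 Nx-HPi-Lp, against 81.4 to 118 CPM in Sham, so mouse 2 lay below every Sham mouse and the other 3 above. Npy (neuropeptide Y) and the monoamine transporter gene Slc18a2 were called higher there at 9.05 ± 1.62 and 4.38 ± 0.98, with 73 to 2115 counts of Npy per library beside 0 to 7 in Sham. B and plasma cell markers summed to 24.9 to 64.9 CPM in Sham and 46.5 to 849 CPM in 5/6 Nx-HPi-Lp, where Jchain, the joining chain of secreted antibodies, was called higher at 4.79 ± 0.96 and Igkc, an antibody light chain gene, at 3.57 ± 0.88. Kidney tubule markers summed to 2.44 to 5.51 CPM in Sham and 9.21 to 27.5 CPM in 5/6 Nx-HPi-Lp, and pancreas acinar markers to 6.01 to 9.61 and 14.8 to 169 CPM, both higher in every mouse of 5/6 Nx-HPi-Lp than in any Sham mouse. Among them the water channel gene Aqp2 was called higher at 3.66 ± 0.47, with 244 to 989 counts per library beside 17 to 65 in Sham. The kidney tubule sum therefore rested mostly on Aqp2 and does not show a rise of these markers as a set. Cdh16 was called lower at -5.65 ± 1.14, with 0 to 4 counts per library beside 20 to 76 in Sham. The digestive enzyme genes Prss2 and Cela2a were called higher at 7.02 ± 1.41 and 6.77 ± 1.36, with 0 to 3 and 0 to 4 counts per library in Sham. Of 10 replication-dependent histone genes tested, Hist1h4i was called higher and Hist1h2be and Hist2h2be lower in 5/6 Nx-HPi-Lp than in Sham. Of all genes, 15.0% were called higher and 7.18% lower there. The log2 fold changes of these histone genes were 1.93 ± 0.61, -2.20 ± 0.68 and -1.46 ± 0.22 in that order. The part of any of these in the mitochondrial values was not tested.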
